A study of Mus musculus with 16 samples.

Results

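A set of 90 named genes, of the 16593 on a mouse expression bead array, read by 107 of its 25697 probes with 3 unnamed probes among them, stayed near its starting level for 12 h of E1A induction in embryonic stem cells and was then lower at 48 h, both in induced cells and in a cherry control of the same age. The members were chosen from measured values. On the normalized log2 scale, 48 h minus 0 h and 48 h cherry control minus 0 h each had to be -1.1 or lower, and 12 h minus 0 h had to lie within 0.3 of 0. The probe also had to be detected (detection p under 0.05) on at least 2 of the 16 arrays. The arrays of 0 h, 12 h, 48 h and the control therefore fixed the fall itself, which is given here as a description with no test. The level at 24 h set against 3, 6 and 9 h rests on arrays that the thresholds did not use, and it is tested.

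The 8 groups were cells harvested after 0, 3, 6, 9, 12, 24 and 48 h of E1A induction and a 48 h group labelled as cherry control, with 2 arrays each. All were embryonic stem cells, their background is given as mixed from C57BL/6, C3H and CD1, and E1A induction is the listed treatment of every group, the control included. The labels do not give what drives E1A, whether the control cells carry it, or whether the arrays of a group came from separate cultures, so p-values reflect only how far these arrays differ, and that spread may be technical. E1A is an early adenoviral protein that acts by binding cellular regulators, among them the retinoblastoma family and histone acetyltransferases.

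Embryonic stem cells divide rapidly and make large numbers of ribosomes. Ribosomal RNA is transcribed by RNA polymerase I in the nucleolus, cut and modified there by small nucleolar particles, helicases and methyltransferases, and joined to ribosomal proteins. These cells also express the de novo DNA methylation enzymes and respond to FGF, whose ERK kinase branch induces its own inhibitors, such as the phosphatase Dusp6, and ETS-family transcription factors.

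Of the 107 members, 104 carried 1 gene symbol in the platform annotation, for 90 genes, and 3 carried none. They were grouped by known role after the members were seen, so the groups have no test. Ribosome biogenesis and the nucleolus took 14 probes of 12 genes. RNA processing, transcription and translation took 14 probes of 12 genes, and mitochondrial gene expression 5 probes of 3 genes. Metabolism and transport took 13 probes, growth and kinase signalling 8, zinc finger proteins 8, and DNA methylation together with embryonic stem cell genes 6. The other 39 probes, among them the 3 unnamed ones, had no shared role.

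For some of the ribosome biogenesis genes the upstream sequence is shown, because it holds the CACGTG hexamer. CACGTG is the E-box bound by Myc-family and other helix-loop-helix proteins. The 250 bases before the annotated start were read from the RefSeq promoter table (GRCm38.p6), which held 75 of the 90 genes in 101 windows. Of 10 ribosome biogenesis genes with a window, 5 had a CACGTG. It was in 41.7% of their windows, in 9.9% of the windows of all members' genes and in 6.02% of all windows of the table. The table holds 27025 genes, against 9614 tested on the array, so its windows are not a like set for the members. In the sequences below capitals mark CACGTG and CCGGAAG, an ETS-type motif, on either strand. No CACGTG overlapped a CCGGAAG.
Cd3eap, - strand, chr7:19359484-19359733: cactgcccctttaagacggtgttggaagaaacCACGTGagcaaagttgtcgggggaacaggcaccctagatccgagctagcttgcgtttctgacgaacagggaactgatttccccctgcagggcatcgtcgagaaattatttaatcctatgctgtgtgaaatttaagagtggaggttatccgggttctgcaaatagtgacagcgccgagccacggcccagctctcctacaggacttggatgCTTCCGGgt
Imp4, + strand, chr1:34439579-34439828: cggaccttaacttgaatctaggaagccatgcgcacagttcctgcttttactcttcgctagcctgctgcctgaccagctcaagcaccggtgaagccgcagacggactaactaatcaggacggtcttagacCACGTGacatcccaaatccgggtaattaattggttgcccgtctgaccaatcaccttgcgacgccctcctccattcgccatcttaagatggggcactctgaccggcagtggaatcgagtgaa
Nop2, + strand, chr6:125131633-125131882: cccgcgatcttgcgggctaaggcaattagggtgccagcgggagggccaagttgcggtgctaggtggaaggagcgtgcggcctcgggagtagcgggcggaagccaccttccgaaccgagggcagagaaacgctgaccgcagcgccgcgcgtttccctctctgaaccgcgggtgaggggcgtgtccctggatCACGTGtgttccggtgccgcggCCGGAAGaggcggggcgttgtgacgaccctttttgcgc
Rbm19, + strand, chr5:120116263-120116512: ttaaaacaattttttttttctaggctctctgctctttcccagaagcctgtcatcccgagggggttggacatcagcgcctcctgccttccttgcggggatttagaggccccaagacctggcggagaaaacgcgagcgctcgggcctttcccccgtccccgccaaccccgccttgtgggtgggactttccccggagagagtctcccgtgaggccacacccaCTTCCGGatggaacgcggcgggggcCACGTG
Rps19, + strand, chr7:24884663-24884912: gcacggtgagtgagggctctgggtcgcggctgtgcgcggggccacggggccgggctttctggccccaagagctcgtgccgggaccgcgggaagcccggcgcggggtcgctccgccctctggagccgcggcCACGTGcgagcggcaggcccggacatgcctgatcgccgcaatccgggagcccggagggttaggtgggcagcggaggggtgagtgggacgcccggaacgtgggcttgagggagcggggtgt

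CCGGAAG was in 19.8% of the members' windows and in 6.91% of all windows. Both motifs were picked from 7 that were counted on both strands after the members were known. The other five were ATGCAAAT (2.97% of members' windows, 1.6% of all), an NRF1-type motif (1.98% and 0.782%), a YY1-type motif (0% and 0.207%), CCAAT (34.7% and 33.8%) and TGACGTCA (4.95% and 1.55%). In the 12 windows of the ribosome biogenesis genes CCGGAAG was in 25%, and CCAAT and TGACGTCA were in 8.33% each. ATGCAAAT, the NRF1-type and the YY1-type motif were in 0% of them. A match describes these letters in this window and was not related to binding.

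The members as a whole kept their level early and lost part of it by 24 h. The median of their group means on the log2 scale was 8.35 to begin with, 8.18 after 3 h, 8.17 after 6 h, 8.22 after 9 h, 8.20 after 12 h, 7.78 after 24 h and 6.83 after 48 h, and 6.91 in the control. Over all 13974 tested probes the median lay between 7.11 and 7.12 in every group. Quantile normalization gives all arrays the same distribution, so this steady median was largely fixed in advance. At 0 h the members were brighter than the typical tested probe, with their median at the 66.9th percentile, and at 48 h they stood at the 45.8th. The rule itself favours both, since a probe near background at 0 h has little room to fall and every member had to fall. Their dimmest mean at 0 h was 5.68 and their brightest 13.53, so the set spans most of the scale. In a bulk sample, fewer cells that express a gene and less RNA per cell cannot be told apart.

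**Figure D1:**
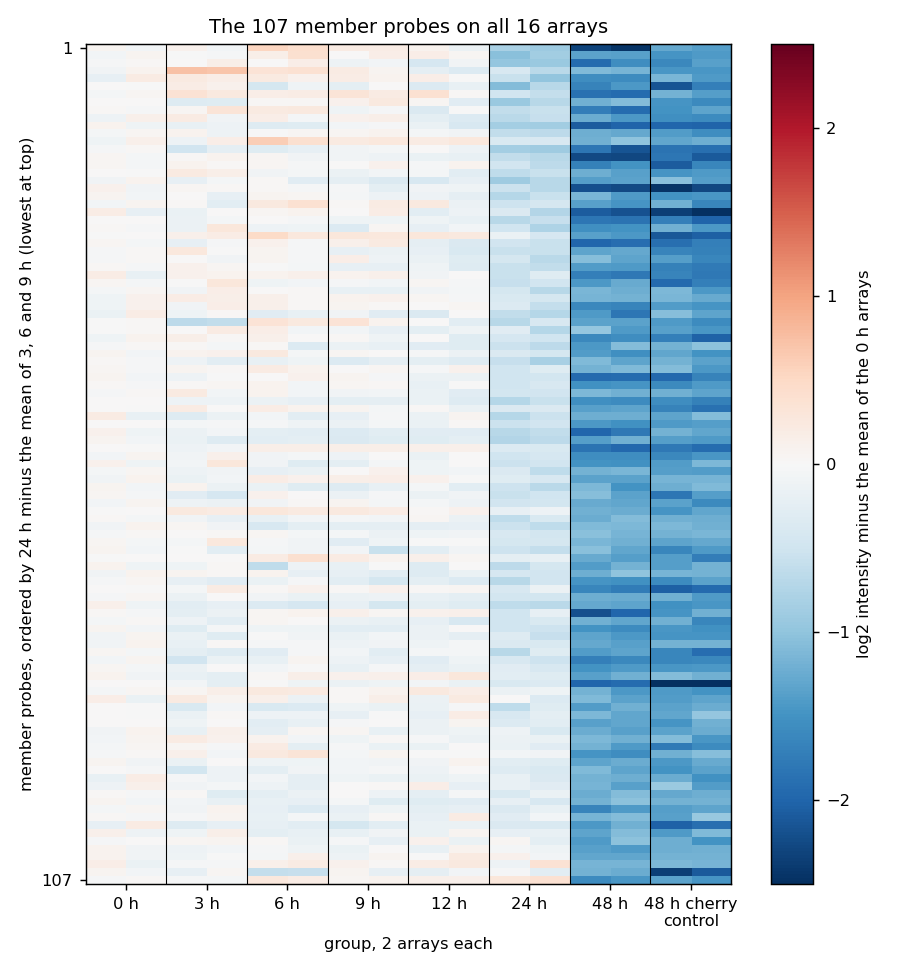
Log2 intensity of the 107 member probes on each of the 16 arrays, minus the probe's mean at 0 h; each line is a probe, ordered by its 24 h minus early difference, and each pair of columns is a group. Colours stay pale over the first 10 arrays, turn light blue at 24 h for most probes and are dark blue in both 48 h groups.

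At 24 h, 82 of the 107 members were lower than the mean of 3, 6 and 9 h and 1 was higher (limma, adjusted p under 0.05), while 24 did not pass the test. Among all tested probes 13.6% were lower and 13.7% were higher in this comparison. The members' median difference was -0.42, against -0.01 for all tested probes, and it ran from -1.09 to 0.25. For 81 members both 24 h arrays lay below all 6 early arrays, which held for 17.2% of all tested probes. The 24 h arrays were not used by the thresholds, but every member had to be lower one time point later. As a share of the fall between the 3 to 9 h mean and the mean of the 48 h groups, the 24 h level had covered 31.2% at the median member, with quartiles of 19.9% and 38.9%. With any 1 array left out, at least 62 members were called lower.

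**Figure D2:**
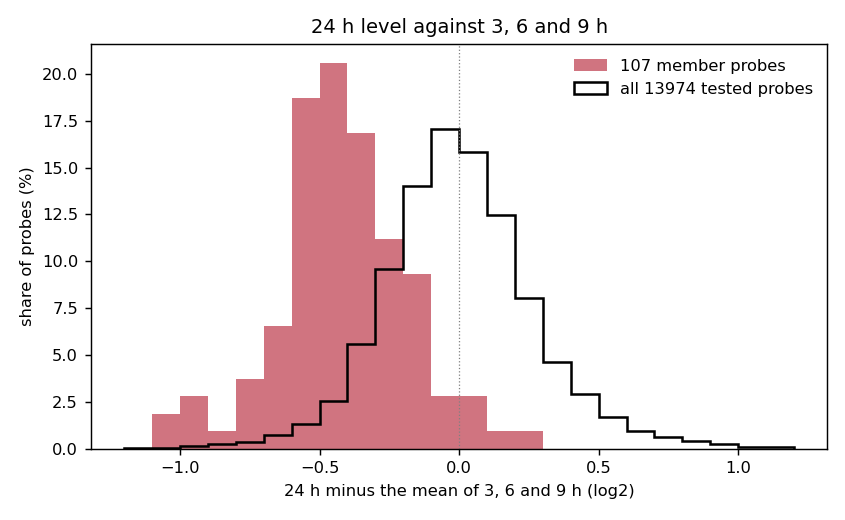
Share of probes (%) by 24 h minus the mean of 3, 6 and 9 h on the log2 scale, in steps of 0.1, for the 107 members (filled) and for all 13974 tested probes (line). The members centre on -0.42 and all tested probes on -0.01.

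Calls among the early groups were about as frequent for members as for all tested probes. Between 3 and 9 h, 1 member was lower and 2 were higher, where 2.52% and 3.4% of tested probes were. Between 3 and 6 h, 0 were lower and 3 were higher (0.988% and 1.57% of tested probes) by limma. The probe of Tril, a modulator of Toll-like receptor signalling, gave the largest of these shifts. Its arrays read 6.13 and 6.16 at 0 h, 5.49 and 5.52 at 3 h, 6.48 and 6.38 at 6 h and 6.49 and 6.23 at 9 h, a dip at a single time point (6 h minus 3 h 0.92, SE 0.12, adjusted p = 0.00147). Rbm15, an RNA-binding protein of the m6A methylation machinery, went the other way with 7.13 and 7.29 at 0 h, 7.95 and 7.91 at 3 h and 7.41 and 7.28 at 9 h. Both were chosen for mention after their values were seen.

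Among the ribosome biogenesis members 11 of 14 probes were lower at 24 h, with a median difference of -0.34 and a range of -0.47 to -0.05. This count and those of the other role groups below stand beside 76.6% of all members and 13.6% of all tested probes. They describe the groups and do not set one apart from the other members. Pes1, a factor of large-subunit maturation, had the deepest late fall of the group. Its arrays read 9.61 and 9.62 at 0 h, 9.37 to 9.60 over the 6 arrays of 3 to 9 h (median 9.51), 9.55 and 9.44 at 12 h, 9.22 and 9.26 at 24 h, 7.62 and 7.69 at 48 h, and 7.05 and 6.90 in the control. The 24 h arrays lay just under all earlier ones (-0.26, SE 0.07, adjusted p = 0.0174), and this call was lost without either 24 h array (adjusted p = 0.13 and 0.0826). Most of the Pes1 fall came after 24 h, since 12% of it had been covered by then.

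Noc3l, a nucleolar protein of large-subunit assembly, read 9.28 and 9.15 at 0 h, 9.09 to 9.31 over 3 to 9 h (median 9.21), 9.07 and 9.06 at 12 h, 8.71 and 8.76 at 24 h, 7.27 and 7.29 at 48 h, and 7.25 and 7.54 in the control. Its 24 h arrays were below the 10 earlier ones by more than those differed among themselves (-0.47, SE 0.08, adjusted p = 0.000844). The 2 probes of Ncl, nucleolin, the abundant RNA-binding protein of the nucleolus, moved alike. ILMN_2723850 read 10.77 and 10.77 at 0 h, 10.53 to 10.64 over 3 to 9 h (median 10.59), 10.60 and 10.45 at 12 h, 10.05 and 10.21 at 24 h, 9.23 and 9.20 at 48 h, and 9.21 and 9.08 in the control. Its 24 h difference was -0.46 (SE 0.07, adjusted p = 0.00046), and that of ILMN_2693976 was -0.35 (SE 0.08, adjusted p = 0.00386).

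The others of this group span several steps of ribosome production. Lower at 24 h were Imp4, a protein of the U3 small nucleolar particle (-0.42 and -0.28 by its 2 probes), Nop2, a ribosomal RNA methyltransferase (-0.43), Ddx51, a helicase of ribosomal RNA processing (-0.40), Nifk, a nucleolar partner of the Ki-67 antigen (-0.40), Wdr55 (-0.34) and the RNA polymerase I subunit Cd3eap (-0.31). Not past the threshold at 24 h were Rbm19 (-0.20, adjusted p = 0.133), the nucleolar telomerase inhibitor Pinx1 (-0.19, adjusted p = 0.15) and the small-subunit protein Rps19 (-0.05, adjusted p = 0.794). Cd3eap, Imp4, Nop2, Rbm19 and Rps19 are the genes whose upstream sequence is printed above, so 3 of those 5 were lower at 24 h.

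The Rps19 member stands against another probe of its gene. The member was dim and read 5.57 and 5.97 at 48 h and 5.77 and 5.49 in the control, against 6.97 and 7.0 at 0 h. The other Rps19 probe was bright, with means of 14.26 at 48 h and 14.28 in the control, against 14.16 at 0 h, and did not pass the test in either late group (adjusted p = 0.377 and 0.255). Which transcripts the probes read was not determined, and a level of one probe cannot be set against that of another.

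A list of ribosome biogenesis genes and Myc targets that also holds genes outside the set had 12 tested probes of 9 genes, of which only the Ncl probes were members. At 24 h 6 of the 12 were lower and 0 higher than at 3 to 9 h (at 13.6% and 13.7% of all tested probes). Against 0 h, 11 were lower at 48 h and 10 in the control, where 27.5% and 27.2% of all tested probes were, but these include the 2 Ncl probes, chosen to be lower there. Outside the set, spermidine synthase (Srm) was lower by all 3 probes, for example ILMN_2630641 with -0.44 at 24 h against 3 to 9 h and -1.04 at 48 h against 0 h. Fibrillarin (Fbl), the methyltransferase of box C/D particles, was among those not called, with means of 12.22 at 48 h and 12.18 in the control, against 12.40 at 0 h.

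Of the RNA processing, transcription and translation members, 9 of 14 probes were lower at 24 h (median -0.36). Rbm15 had the lowest difference of them, with 24 h arrays at 6.81 and 6.54 against 7.28 to 7.95 at 3 to 9 h (-0.94, SE 0.08, adjusted p = 3.07e-06). Its arrays read 6.11 and 6.04 at 48 h, and 5.76 and 5.76 in the control. Since Rbm15 had been raised at 3 h, part of this difference is height above the 0 h level of 7.13 and 7.29. Rbmx, an RNA-binding regulator of splicing, was lower by -0.77 and Syncrip, a heterogeneous nuclear ribonucleoprotein, by -0.42. The 3 probes of Polr2d, a subunit of RNA polymerase II, gave -0.22, -0.21 and -0.08 at 24 h, and none passed the test.

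Among the mitochondrial genes all 5 probes were lower at 24 h, between -0.66 and -0.40. Mrpl15, a protein of the large mitochondrial ribosomal subunit, had the largest mean late fall of all members, together with Pes1. It read 7.35 and 7.16 at 0 h, 7.0 to 7.30 over 3 to 9 h (median 7.25), 7.17 and 7.15 at 12 h, 6.71 and 6.55 at 24 h, 5.05 and 4.99 at 48 h, and 4.79 and 4.98 in the control. All 4 late arrays of Mrpl15 were not well above background, which gives a level at least 4.46-fold below that of 0 h at 48 h and at least 4.53-fold below it in the control. Fastkd5, which processes mitochondrial transcripts, differed by -0.66 at 24 h, and the 3 probes of Elac2, the nuclease that trims transfer RNA ends, by -0.49, -0.49 and -0.40.

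The embryonic stem cell members include the most intense probes of the set. Dnmt3l, the cofactor of the de novo DNA methyltransferases, read 13.38 and 13.32 at 0 h, 13.15 to 13.45 over 3 to 9 h (median 13.32), 13.24 and 13.03 at 12 h, 12.79 and 12.73 at 24 h, 11.96 and 11.93 at 48 h, and 11.66 and 11.58 in the control by ILMN_3112268. Its second probe followed the same course, and both were lower at 24 h (-0.54 and -0.55, SE 0.07 and 0.08). L1td1, an RNA-binding protein derived from a retrotransposon and typical of these cells, read 11.99 and 11.91 at 0 h, 11.83 to 12.04 over 3 to 9 h (median 11.92), 11.79 and 11.77 at 12 h, 11.33 and 11.26 at 24 h, 9.69 and 9.67 at 48 h, and 10.14 and 9.85 in the control. The 24 h arrays of L1td1 lay below all earlier ones (-0.63, SE 0.08, adjusted p = 7.56e-05).

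Zscan10, a zinc finger factor of the stem cell network, was lower by -0.52 and the homeobox gene Cphx1 by -0.71 at 24 h. Dnmt3b, the de novo methyltransferase itself, was not (-0.09, SE 0.10, adjusted p = 0.571). Its member probe read 7.70 and 8.11 at 0 h, 7.48 to 7.71 over 3 to 9 h (median 7.64), 7.55 and 7.53 at 24 h, 6.47 and 6.70 at 48 h, and 5.89 and 6.03 in the control. A brighter Dnmt3b probe outside the set had means of 11.61 at 48 h and 10.99 in the control, against 12.55 at 0 h. Of the list of formative and primed pluripotency genes, 2 of 8 probes were lower and 2 higher at 24 h (13.6% and 13.7% of all tested probes), with a median of -0.15.

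The 4 genes that define embryonic stem cells were present throughout. Pou5f1, Nanog, Sox2 and Zfp42 were detected by all 6 probes on all 16 arrays. Their summed linear level lay at 12858 to 13465 at 24 h, against 21182 to 23738 at 0 h, and at 10114 to 10841 at 48 h, against 15186 to 15516 in the control. The arrays of the late groups did not overlap in this sum, but its genes did not move alike. The 2 Pou5f1 probes averaged 10.88 and 11.14 at 48 h and 11.72 and 12.05 in the control, against 12.42 and 12.84 at 0 h on the log2 scale. Zfp42 was also lower, with 10.49 at 48 h and 11.05 in the control, against 11.43 at 0 h. Nanog went the other way, with 12.09 at 48 h and 12.47 in the control, against 11.67 at 0 h. Sox2 (ILMN_1248711) had 8.21 at 48 h and 8.64 in the control, against 8.26 at 0 h. Its brighter probe, ILMN_2656102, had 8.74 and 9.39, against 9.19, in the same order. Of 7 probes of feeder fibroblast markers (collagens, Lum, Postn and Thy1) 5 were detected on no array, but Thy1 was detected on all 16 and Col1a1 on 2. Of those of the mesoderm markers Kdr, Mesp1 and Mixl1, 0 of 4 were detected on any. Among neuroectoderm markers, Nes was detected on 14 and 12 arrays by its 2 probes, and Pax6 and Sox1 on none. Longer lists hold markers that were present and moved. In the feeder list, with 11 tested probes, Vim averaged 8.79 at 48 h and 8.51 in the control, against 9.83 at 0 h, Acta2 (ILMN_2693895) 11.37 and 9.22, against 10.4, and Lox 7.21 and 5.42, against 7.01, in the same order. The mesoderm list, with 4 tested probes, did not move alike. Gsc averaged 7.41 at 48 h and 8.71 in the control, against 5.09 at 0 h. Tbx6 averaged 5.52 and 5.09, against 4.62, in the same order. Eomes went the other way, with 4.84 and 4.9, against 5.39 (limma, adjusted p = 0.00051 and 0.00123). Snai1 was level, and differed from 0 h by -0.02 at 48 h and by 0.02 in the control. The trophectoderm sum was carried by Krt8 and Krt18. It was 2306 to 2424 at 48 h, against 1392 to 1460 in the control and 1331 to 1384 at 0 h. Of its 7 probes, the 3 of Elf5 were detected on no array, and Cdx2 was detected on 3 of 16 arrays. All marker sums here hold background, since the 4 mesoderm probes, detected on no array, summed to 453 to 465 at 0 h. The sums thus understate changes of dim markers. On the normalized log2 scale Krt8 averaged 10.04 at 48 h and 8.85 in the control, against 8.36 at 0 h. Krt18 averaged 8.94 and 7.68, against 6.75, in the same order. The primitive endoderm sum was 3956 to 4238 at 48 h, against 3516 to 3951 in the control and 3029 to 3111 at 0 h. The longer primitive endoderm list, with 16 tested probes, had a median difference from 0 h of 0.80 at 48 h and 0.65 in the control. The median of all tested probes was -0.03 in both. Col4a2 averaged 9.59 at 48 h and 9.44 in the control, against 7.79 at 0 h. Sox7 (ILMN_2889482) averaged 6.66 and 6.55, against 6.64, in the same order. The part of these markers in the members' fall was not tested.

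In growth and kinase signalling 7 of 8 probes were lower at 24 h (median -0.63). Dusp6, the phosphatase that inactivates ERK, read 10.75 and 10.74 at 0 h, 10.61 to 10.98 over 3 to 9 h (median 10.70), 10.70 and 10.49 at 12 h, 10.12 and 10.19 at 24 h, 9.53 and 9.39 at 48 h, and 9.27 and 9.34 in the control by ILMN_2925711. Both Dusp6 members were lower at 24 h (-0.60 and -0.80, SE 0.08 and 0.14, adjusted p = 6.29e-05 and 0.00065). Another probe of the gene, outside the set, was lower as well (-0.58). Etv1, an ETS-family transcription factor, read 7.09 and 7.15 at 0 h, 6.99 to 7.28 over 3 to 9 h (median 7.13), 6.70 and 7.03 at 12 h, 6.15 and 6.19 at 24 h, 5.19 and 5.56 at 48 h, and 5.50 and 5.77 in the control.

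Etv1 had one of the lowest 24 h differences (-0.97, SE 0.11, adjusted p = 3.02e-05), and 59.2% of its fall had been covered by then. The hypoxia-inducible factor Epas1 was similar, with 24 h arrays at 6.43 and 6.00 against 7.06 to 7.20 at 3 to 9 h (-0.93, SE 0.12, adjusted p = 0.000103). The adaptor proteins Dok2 and Dapp1 and the nuclear NF-kappaB inhibitor family member Nfkbid were lower by -0.56, -0.66 and -0.48. Of 12 tested probes of FGF and ERK targets, which include 2 Dusp6 members, 10 were lower and 1 higher at 24 h, where 13.6% and 13.7% of all tested probes were. In that list Etv4 and Spry4, not members, were lower by -1.04 and -1.15, and Egr1 by -1.47.

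Ccnd1, cyclin D1, which drives cells out of the first gap phase, was the exception of the signalling group. Its member probe read 8.42 and 8.29 at 0 h, 8.15 and 8.40 at 3 h, 7.76 and 7.78 at 6 h, 8.42 and 8.16 at 9 h, 8.13 and 8.29 at 12 h, 8.34 and 8.09 at 24 h, 7.17 and 7.12 at 48 h, and 6.00 and 6.27 in the control. The 24 h level overlapped the early arrays (0.10, SE 0.11, adjusted p = 0.508). The other Ccnd1 probes were brighter and were called higher at 24 h against 3 to 9 h (0.26 and 0.21, adjusted p = 0.0299 and 0.0307). At 12 h they had been 0.66 and 0.68 above 0 h, outside the choosing limit of 0.3. At 48 h they stood at 10.45 and 10.08, and at 9.56 and 9.27 in the control, against 10.71 and 10.40 at 0 h. By limma both were lower than at 0 h at 48 h (-0.26 and -0.32, adjusted p = 0.0451 and 0.00394) and in the control (-1.15 and -1.14, adjusted p = 3.81e-07 and 4.54e-08). Their fall thus passed the choosing threshold of -1.1 in the control alone. The list of Wnt targets, which holds the Ccnd1 probes, had 6 tested probes. At 24 h against 3 to 9 h 0 were lower and 3 higher (13.6% and 13.7% of all tested probes).

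**Figure D3:**
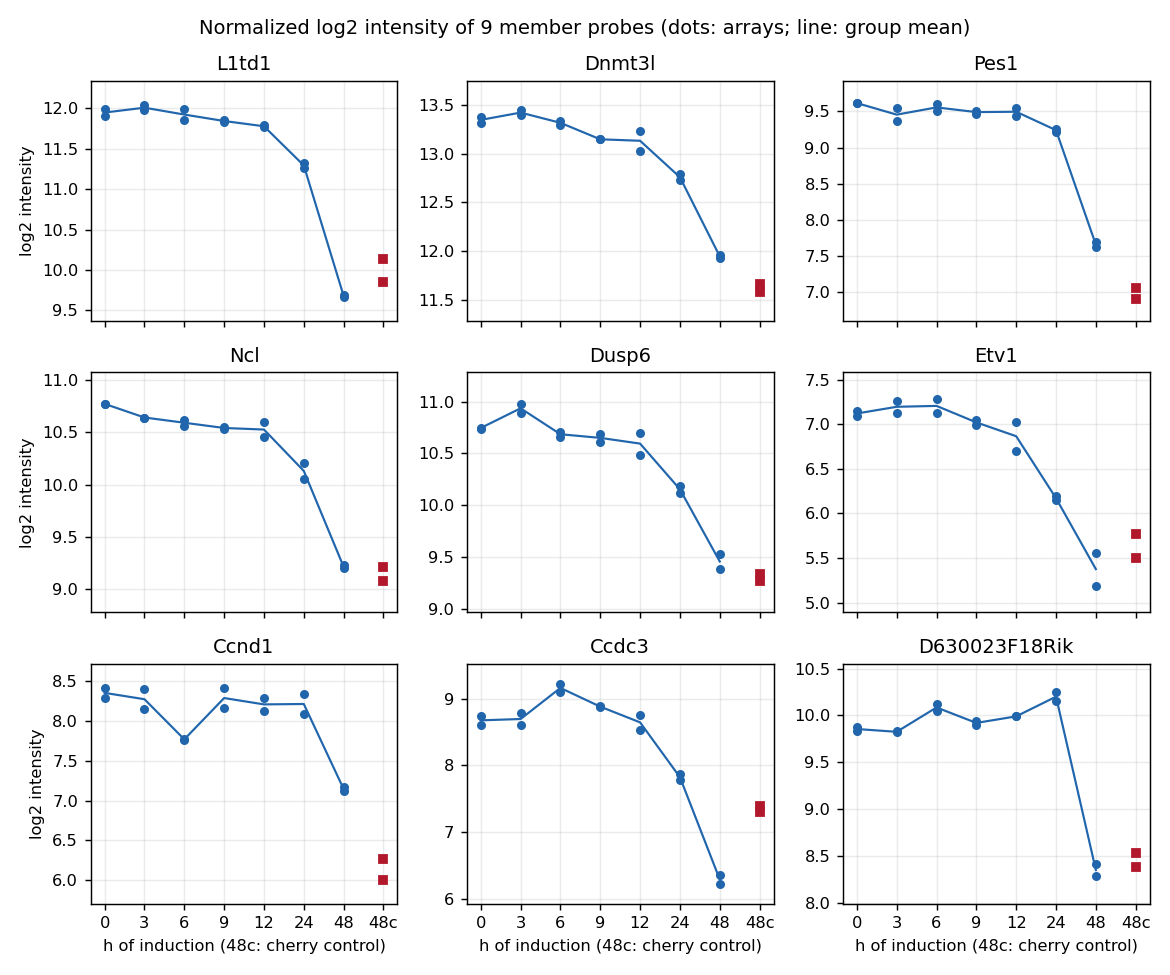
Normalized log2 intensity of 9 member probes by hours of induction (categories evenly spaced), with 2 arrays per group as dots, the means of the induced groups joined by a line, and the 48 h cherry control (48c) as red squares; for Ncl, Dusp6 and Dnmt3l the probes whose arrays are given in the text are drawn. L1td1, Dnmt3l, Ncl, Dusp6, Etv1 and Ccdc3 are lower at 24 h, Pes1 less so, Ccnd1 is level and D630023F18Rik is higher there.

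Of the zinc finger proteins 7 of 8 were lower at 24 h (median -0.54), and Zfp819 had the lowest difference of them (-0.80, SE 0.10, adjusted p = 4.63e-05). Zfp936 missed the threshold (-0.30, adjusted p = 0.0556). Of the metabolic members 11 of 13 were lower at 24 h. Pcyt1b, an enzyme of phosphatidylcholine synthesis, was lower by both probes (-0.69 and -0.64, adjusted p = 2.88e-05 and 0.000234). ILMN_3132186 for Pcyt1b read 8.13 and 7.94 at 0 h, 7.20 and 7.17 at 24 h, 5.96 and 6.04 at 48 h, and 6.06 and 6.04 in the control. Smpdl3b, a sphingomyelinase-like phosphodiesterase of the cell membrane, differed by -0.42 at 24 h, and its late levels were 3.74-fold (48 h) and 3.62-fold (control) below 0 h. Ggct, an enzyme of glutathione turnover, was at its early level at 24 h by both probes (-0.13 and 0.00).

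Of the other genes, Ccdc3, a secreted coiled-coil protein, had the lowest 24 h difference of all members. It read 8.74 and 8.61 at 0 h, 8.78 and 8.61 at 3 h, 9.22 and 9.10 at 6 h, 8.89 and 8.87 at 9 h, 8.76 and 8.53 at 12 h, 7.87 and 7.78 at 24 h, 6.36 and 6.23 at 48 h, and 7.40 and 7.30 in the control. It was first higher at 6 h than at 3 h (0.46, SE 0.11, adjusted p = 0.0334) and then 2.12-fold lower at 24 h than at 3 to 9 h (-1.09, SE 0.09, adjusted p = 1.21e-06). An unnamed probe, ILMN_2681913, followed with a measured difference of -1.07 (SE 0.09, adjusted p = 1.26e-06). Neither 24 h array had it well above background, so the difference is given as at least 1.85-fold lower.

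The neuronal intermediate filament gene Ina read 8.15 and 7.76 at 0 h, 7.79 to 8.14 over 3 to 9 h (median 7.99), 7.60 and 7.23 at 24 h, 5.88 and 5.78 at 48 h, and 5.61 and 5.40 in the control. Its 24 h arrays were lower but far apart (-0.57, SE 0.12, adjusted p = 0.00253), and without the second of them the call was lost (adjusted p = 0.0838). The elastic-fibre protein Mfap5 differed by -0.55 and the chaperone Hsph1 by -0.53 at 24 h. Of the list of heat shock genes, 5 of 9 probes, Hsph1 included, were lower and 0 higher at 24 h (13.6% and 13.7% of all tested probes).

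At the other end, D630023F18Rik was the only member called higher at 24 h. It read 9.83 and 9.88 at 0 h, 9.82 to 10.12 over 3 to 9 h (median 9.92), 10.15 and 10.25 at 24 h, 8.29 and 8.41 at 48 h, and 8.53 and 8.38 in the control. The difference at 24 h was 0.25 (SE 0.07, adjusted p = 0.0174), and it lost the threshold without the second 24 h array (adjusted p = 0.184) and under median scaling (adjusted p = 0.0852). Its fall of 1.85 between 24 and 48 h was the largest of the set. The probes of Mup2 and Tcte3 were not called at 24 h, with differences of 0.06 and 0.04. With 1 array left out the difference ran from -0.18 to 0.30 for Mup2 and from -0.05 to 0.13 for Tcte3.

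**Figure D4:**
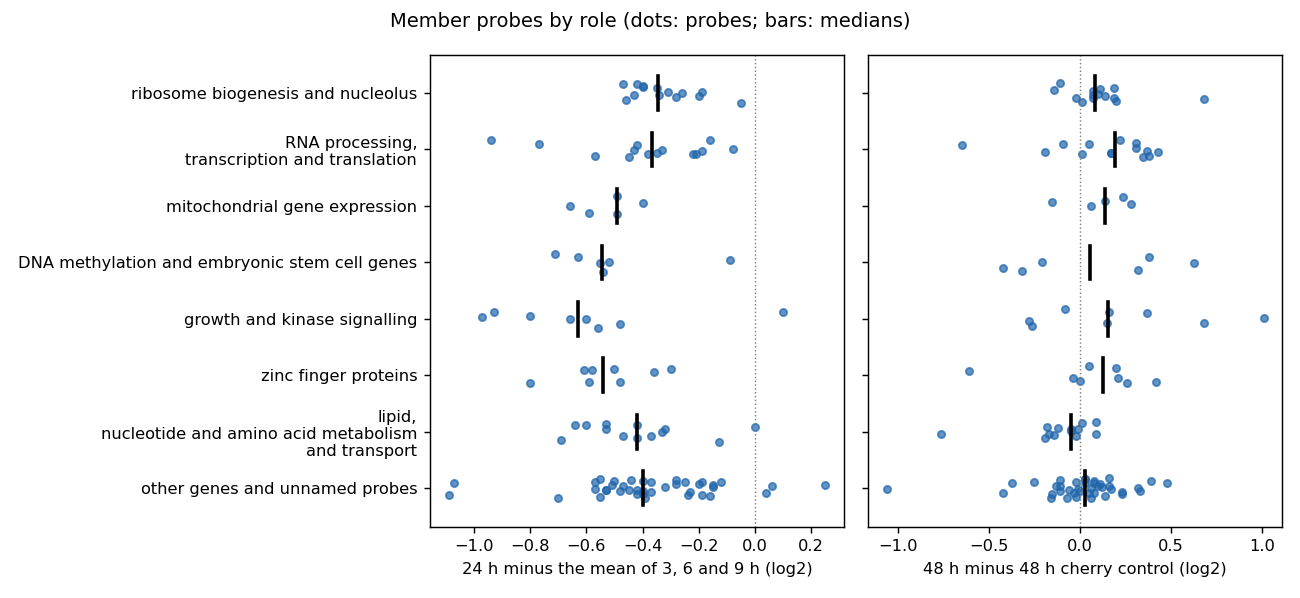
Member probes by role (dots, spread vertically to keep them apart; bars are medians), with 24 h minus the mean of 3, 6 and 9 h on the left and 48 h minus 48 h cherry control on the right, both log2. Every role lies mostly below 0 on the left, with medians between -0.63 and -0.34, and around 0 on the right, with medians between -0.05 and 0.20.

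By 48 h all members had fallen in both groups, as the rule required, by 1.32 on the log2 scale at the median in induced cells and by 1.41 in the control. Both differences are taken from the same 0 h arrays.

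The threshold cut through a continuous range. Just inside it were Dapp1 (48 h minus 0 h -1.101), Gtse1 (-1.103) and Nifk (-1.104). Just outside lay Mest (-1.093), Prmt6 (-1.092) and a second probe of Asb6 (control minus 0 h -1.098). A total of 249 probes had both late differences at -1.1 or lower. Of these, 133 were left out because they were already lower by 0.3 or more at 12 h, and 9 because they were higher by as much. The set is therefore the later-moving share of a larger group that fell in both 48 h groups.

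Detection was lost by a minority. All 107 members were detected on both arrays of every group from 0 to 12 h, and 91 on all 16 arrays. At 24 h 1 member was detected on neither array, at 48 h 9, and in the control 10, of which 7 were lost in both late groups. Among all tested probes 8.37% were detected on neither 48 h array and 7.49% on neither control array, so the members' shares of 8.41% and 9.35% lay near the background at that time, whereas at 0 h none of the members and 9.41% of tested probes were undetected. With a detection p under 0.01 the members detected on neither array numbered 2 at 24 h, 20 at 48 h and 20 in the control.

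The 7 probes lost in both late groups have only bounds there. Beside Mrpl15 they were one Pcyt1b probe, ILMN_1232402, at least 3.15-fold lower at 48 h and at least 3.21-fold lower in the control than at 0 h, and Aoah, a lipopolysaccharide-degrading hydrolase, at least 2.91-fold and 2.96-fold lower. Tril, Crmp1, ILMN_2681913 and Mup2 had lower bounds between 1.5-fold and 2.10-fold. Mfap5 and Zp3, an egg-coat glycoprotein, were lost on both 48 h arrays and on 1 control array. Rbmx, Zfp936 and Fbxo42 were detected on neither control array but on at least 1 array at 48 h. These differences between the late groups concern single arrays near background and were not tested.

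Between 48 h and the control most members did not differ past the threshold. By limma 11 were higher at 48 h and 7 lower, where 8.85% and 9.05% of tested probes were higher and lower, and 89 were not called. These shares, 10.3% and 6.54% of the members, lay near the background. The arrays of both groups chose the members, and probes that fell in only 1 of the groups were left out. The counts are therefore a description. The median difference was 0.06 (all tested probes 0.01) and the range -1.06 to 1.01, with a median standard error of 0.11. For 38 members both 48 h arrays were above both control arrays and for 21 below, where 29.9% and 26.7% of tested probes were. Missing the threshold does not show that the groups were equal. The counts were 5 higher and 4 lower without the second 48 h array, 6 higher without the first, and 7 higher without the second control array.

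**Figure D5:**
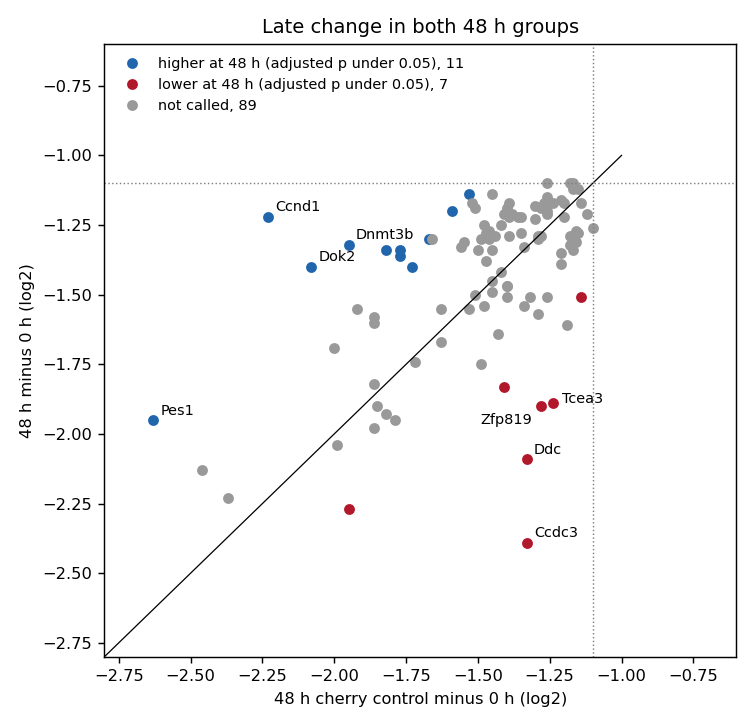
Each member's 48 h minus 0 h difference (vertical) against its 48 h cherry control minus 0 h difference (horizontal), log2, with the line of equality and dotted lines at the choosing threshold of -1.1. The 11 probes called higher at 48 h lie above the line and the 7 called lower below it; the genes with the 4 highest and the 4 lowest differences are named.

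Ccnd1 had the highest difference, 2.01-fold above the control (1.01, SE 0.13, adjusted p = 7.98e-05). Its arrays at 7.17 and 7.12 stood clear of those of the control at 6.00 and 6.27. Pes1 was 1.60-fold higher at 48 h (0.68, SE 0.09, adjusted p = 0.000113), Dok2 likewise 1.60-fold (0.68, SE 0.10, adjusted p = 0.000267) and Dnmt3b 1.54-fold (0.63, SE 0.13, adjusted p = 0.00302). All 4 were thus lower than at 0 h in both groups but further down in the control. Both Dnmt3l probes went the same way as Dnmt3b (0.32 and 0.38, adjusted p = 0.0205 and 0.0181).

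Gas8, a protein of motile cilia, was higher at 48 h by 0.48, with 5.58 and 5.75 at 48 h against 5.06 and 5.31 in the control (SE 0.11, adjusted p = 0.00859). The call was lost without the second 48 h array or the first control array. Ncoa5 was higher by 0.43, Zfp936 by 0.42, one Atl3 probe by 0.39 and Rbmx by 0.38. For Zfp936 and Rbmx, undetected in the control, the bounds were at least 1.2-fold and at least 1.22-fold higher at 48 h.

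Ccdc3 had the lowest difference, 2.08-fold below the control (-1.06, SE 0.11, adjusted p = 7.67e-06), with 6.36 and 6.23 against 7.40 and 7.30. Ddc, the decarboxylase that makes dopamine and serotonin, was 1.69-fold lower, with 6.31 and 6.52 at 48 h against 7.04 and 7.31 in the control (-0.76, SE 0.12, adjusted p = 0.000351). Its 24 h arrays at 8.02 and 8.30 against 8.27 to 8.63 at 3 to 9 h differed less (-0.33, adjusted p = 0.0173), and not past the threshold without the first 24 h array (adjusted p = 0.3). The transcription elongation factor Tcea3 was lower at 48 h than in the control by -0.65 (SE 0.10, adjusted p = 0.000372) and Zfp819 by -0.61 (SE 0.12, adjusted p = 0.00221). Tcf19 differed by -0.37 (adjusted p = 0.0118).

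Cphx1 and L1td1 were the weakest calls in that direction. Cphx1 read 6.65 and 6.44 at 48 h against 6.88 and 7.05 in the control (-0.42, SE 0.13, adjusted p = 0.0315) and lost the call without the second 48 h or the second control array. L1td1 differed by -0.32 (SE 0.10, adjusted p = 0.0367) and lost it without either 48 h array or the first control array, with adjusted p = 0.301 at most. Both calls were also lost under median scaling (adjusted p = 0.0512 for Cphx1 and 0.179 for L1td1) and in a limma fit of these groups alone. Within the stem cell and methylation members 3 probes were thus higher and 2 lower at 48 h than in the control. Of the ribosome biogenesis members only Pes1 was called in either direction, with the median of the 14 at 0.09.

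Where genes had more than 1 member probe, the probes went together in sign at 24 h except for Ggct, whose values were -0.13 and 0.00. This concerns 10 genes with 2 member probes and 2 genes, Elac2 and Polr2d, with 3. The members' genes had 62 further probes, of which 50 were tested. Against 0 h, 37 of those 50 were lower in both late groups, 0 were higher in either, and 13 were not lower in both. A total of 11 passed the late threshold in both groups, and all 11 had moved by 0.3 or more at 12 h, as for Gemin4 (-1.41 at 48 h and -1.49 in the control by ILMN_1223348). Among those without a fall were Fbxo42 (8.64 at 48 h and 8.69 in the control, against 8.53 at 0 h, by ILMN_2657190) and Eya3 (5.57 at 48 h and 5.55 in the control, against 5.35 at 0 h, by ILMN_2761966). A member's fall is thus that of its probe, and 47 of the 90 genes had a single probe on the array.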

How the data were processed

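Total RNA of 16 samples was amplified, labelled with biotin and read on 1-colour Illumina bead arrays, per the labels' protocols. The deposited table, called non-normalized in the file headers, gives a linear intensity and a detection p-value for each of 25697 probes on every array. BeadStudio 3.2, RMA and lumi are named in the submitters' processing notes, without their roles. The deposited value matrix holds log2 values by the authors, each column with a median of 4.13, and it was used as an alternative. No sample column was left unmatched (0). Each array detected 47.2% to 49.2% of its probes (p-value under 0.05), median intensities were 122 to 136, and arrays of a group correlated at r = 0.995 to 0.997. The number of arrays limits the precision: the median standard error was 0.12 for a log2 difference of 2 groups.

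Intensities were background-corrected with the normal-exponential model (offset 16), quantile normalized and taken to log2 by neqc in limma 3.58.1 (R 4.3.3). The offset understates fold changes of dim probes. The 13974 probes detected on at least 2 arrays were fitted with 1 coefficient per group over all 16 arrays (8 residual degrees of freedom), and p-values were adjusted by Benjamini-Hochberg over all of them, with calls at an adjusted p under 0.05. The procedure was tested on simulated data. Titles number the arrays of each group 1 and 2 but tie no number to a culture or day, so the fit has no replicate block. A fold against a group with no array above background is a bound, taking on each array the probe's own value or, if higher, the dimmest value of a probe above background.

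Gene names came from the platform annotation (23978 probes with 1 symbol, 0 with several, 1719 with none), which can be old, and promoter windows were matched by gene ID. The rule for naming took the 10 members with the largest mean late fall, the 5 highest and 5 lowest in 48 h minus the control and in 24 h minus the early mean, the 3 probes on each side of the threshold, and members on the gene lists. Other members are named to show a role group and were chosen after their values were seen. The members and the 28 gene lists were chosen with earlier results of these data known. Lists that hold no member are not described, apart from the feeder, mesoderm and primitive endoderm lists. Alternatives were other scalings, background corrections, filters, thresholds and fits, each array left out in turn, and, added after the data were seen, 1 probe per gene.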

Additional observations from a re-analysis of the deposited data

Results flagged for a closer look

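The 18 members below are listed because the difference between induced and control cells at the same age passed the test, so that their falls against 0 h were unequal. Values are 48 h minus the 48 h cherry control on the log2 scale, from the limma fit. Higher at 48 h were Ccnd1 (1.01), Pes1 (0.68), Dok2 (0.68), Dnmt3b (0.63), Gas8 (0.48), Ncoa5 (0.43), Zfp936 (0.42), Atl3 (0.39), both Dnmt3l probes (0.38 and 0.32) and Rbmx (0.38). Lower at 48 h were Ccdc3 (-1.06), Ddc (-0.76), Tcea3 (-0.65), Zfp819 (-0.61), Cphx1 (-0.42), Tcf19 (-0.37) and L1td1 (-0.32). These are 11 and 7 of 107 members, at 8.85% and 9.05% of tested probes, so a list of this length is near the background. The arrays of both groups were used to choose the members. No group had more than 2 arrays, and single arrays that stand apart could not be looked for.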

How the results depend on the processing

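The count of members lower at 24 h against 3 to 9 h, 82, was 62 to 82 with 1 array left out and 70 to 85 under the other settings. It was 71 with 1 probe per gene, a setting chosen after the data were seen. The median difference of -0.42 was -0.28 without background correction. The single higher member was not called under median scaling or at an adjusted p under 0.01 (0 each), and 0 to 1 were called with an array left out. For 48 h against the control, the 7 lower members were 4 under median scaling, at an adjusted p under 0.01 and in a fit of these groups alone. The 11 higher ones were 6 at an adjusted p under 0.01 and 7 in a fit of these groups alone. With an array left out these counts were 4 to 7 and 5 to 12. Where a group kept a single array, that array was assumed to vary like the others.

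Calls between 3 and 9 h, 3 in either direction, were 5 under median scaling, 7 without background correction, 6 with an offset of 50, 6 with robust moderation on an intensity trend, and 1 to 3 with an array left out. Those between 3 and 6 h, also 3, were 7 without background correction, 6 with an offset of 50, 1 each with the deposited matrix values, at an adjusted p under 0.01 and in a fit of these groups alone, and 1 to 4 with an array left out. The number of members depended most on the scale: the same thresholds took 29 probes without background correction, 56 with an offset of 50 and 178 with the deposited matrix values, and 102 to 109 with an array left out. By construction, a larger offset or an uncorrected background shrinks log2 differences of dim probes. At a detection p under 0.01, 2 members were detected on neither array at 24 h, 20 at 48 h and 20 in the control. Median scaling moved the median of all tested probes in the control against 0 h to -0.12, and no other scaling moved a median by over 0.1 in the comparisons checked.

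The 31 named members gave 999 alternative values for their called differences. None was reversed, and 26 lost the threshold; the cause was not tested. When the replicate block was added, 84 members were lower and 1 was higher at 24 h, and 7 were lower and 14 higher at 48 h against the control. The numbers were not taken to pair the samples, since the titles tie no number to a culture or day. The deviations of same-numbered arrays correlated at -0.07 to 0.29 between groups (median 0.12), and 16 of 28 pairs of groups were over 0.1. Of the 16 arrays 14 correlated best with arrays of their own number, which is a hint from the data and not from the design. Background and 2 arrays per group limit what dim probes can show.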
